A study of Homo sapiens with 2 samples.

Results

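Within LNCaP_FGC, a human prostate carcinoma line, the cells described here held 0 UMIs (unique molecular identifiers, each standing for 1 captured RNA molecule) of the ETS factor gene ETV1 and at least 1 UMI of RALYL. These RALYL-positive cells numbered 295 of the 610 LNCaP_FGC cells with 0 ETV1 UMIs (48.4%, exact 95% interval 44.3 to 52.4), of 1850 LNCaP_FGC cells and of 3700 cells in the whole series. They were compared with the other 315 cells with 0 ETV1 UMIs, which held 0 RALYL UMIs and are called RALYL-zero cells. RALYL and ETV1 chose the cells, so their own counts are given only to describe or group the cells, and neither is among the genes compared.

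The study carried out single-cell RNA-Seq on LNCaP_FGC and on LNCaP_C4-2B, a castration-resistant derivative, with 1 library of 1850 cells from each. LNCaP_FGC was never selected as a single clone. Both lines were grown without further treatment in RPMI1640 with serum and antibiotics. The libraries carry different batch labels, so that strain and batch cannot be told apart, and all comparisons below lie within LNCaP_FGC unless LNCaP_C4-2B is named.

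RALYL encodes an RNA-binding protein related to RALY and hnRNP C, proteins that bind nascent transcripts and act in splicing and RNA processing, and it is known mainly from the nervous system. ETV1 encodes an ETS transcription factor that is rearranged in LNCaP. In prostate luminal cells androgens drive a secretory program of which KLK3, the gene for prostate-specific antigen, is the best known member.

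The RALYL-positive cells held 5341443 UMIs in all and a median of 17413 per cell, against 5415600 and 16915 in RALYL-zero cells. At a common depth of 10857 UMIs per cell, which left out 20 RALYL-positive and 41 RALYL-zero cells, the median cell had 3745 and 3773.5 detected genes. Mitochondrially encoded genes took 6.53% of UMIs in RALYL-positive and 6.46% in RALYL-zero cells. Ribosomal protein genes took 21.6% and 21.2%. No cell barcode was shared between the 2 libraries (0 of 1850). Levels are given as CPM, UMIs summed over a group of cells and scaled to a common total of 1000000, so that 1 UMI was 0.187 CPM in RALYL-positive and 0.185 CPM in RALYL-zero cells. Because cells of 1 library are not replicates, no significance test was run. Each ratio has an exact 95% interval that covers counting error only, as do the intervals of levels and shares.

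The counts of the genes that chose the cells are given as a description. Of cells with 1 ETV1 UMI, 51.0% were RALYL-positive (124 of 243), close to the share at 0 ETV1 UMIs. The share was 36.6% at 2 ETV1 UMIs (64 of 175), 20.2% at 3 to 4 (67 of 332), 8.18% at 5 to 9 (32 of 391) and 4.04% at 10 or more (4 of 99, interval 1.11 to 10.0). In LNCaP_C4-2B, where the median cell held 17566.5 UMIs, 5 of 1850 cells had a RALYL UMI (0.270%, 0.0878 to 0.630). When both genes were counted again after thinning to the common depth, the RALYL-positive share at 0 ETV1 UMIs was 38.6% (263 of 681) against 16% of cells with ETV1 (167 of 1042). A count of 0 at this depth does not show that a gene is silent.

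Among the 295 RALYL-positive cells, 114 had 1 RALYL UMI, 71 had 2, 56 had 3, 24 had 4, 13 had 5 and 17 had 6 or more, with a highest count of 9. Depth moved with that count. The median was 15900 UMIs per cell at 1 RALYL UMI, 18310 at 2 and 19155.5 at 3 or more. The part of depth in the graded levels below was not tested beyond the comparison at a common depth.

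Luminal lineage genes were present in RALYL-positive and RALYL-zero cells. FOXA1, a pioneer factor of the luminal lineage, stood at 232 CPM in RALYL-positive and 218 CPM in RALYL-zero cells. HOXB13, a homeobox factor of the prostate, stood at 136 and 141 CPM. Neither gene differed by 1.5-fold. Of 17 luminal lineage markers measured, 0 were past 1.5-fold, against 0.457% of all 6570 measured genes in either direction, and the median log2 ratio was -0.04. ACPP, the gene of prostatic acid phosphatase, lay under the level needed to be measured, with 37 UMIs in RALYL-positive and 80 in RALYL-zero cells (0.469, 0.309 to 0.701).

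Few genes separated the RALYL-positive cells from RALYL-zero cells. Of 6570 genes with at least 20 CPM over all cells with 0 ETV1 UMIs, 18 were at least 1.5-fold higher (0.274%) and 12 at least 1.5-fold lower (0.183%) in RALYL-positive cells, or 0.457% in either direction. At 2-fold the counts were 6 and 4. The median log2 ratio over the measured genes was -0.01, and 3142 of the 6570 were above a ratio of 1. The genes at the upper end included ANKRD29, TMEFF2, BCHE, ADGRG6 and FAM110B. KLK3 and the histone variant gene H2AFJ stood at the lower end. The count depends on how many UMIs stand behind each gene: with cells thinned to the common depth, 30 genes were higher and 47 lower, of which 14 and 8 were among the 18 and 12.

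**Figure D1:**
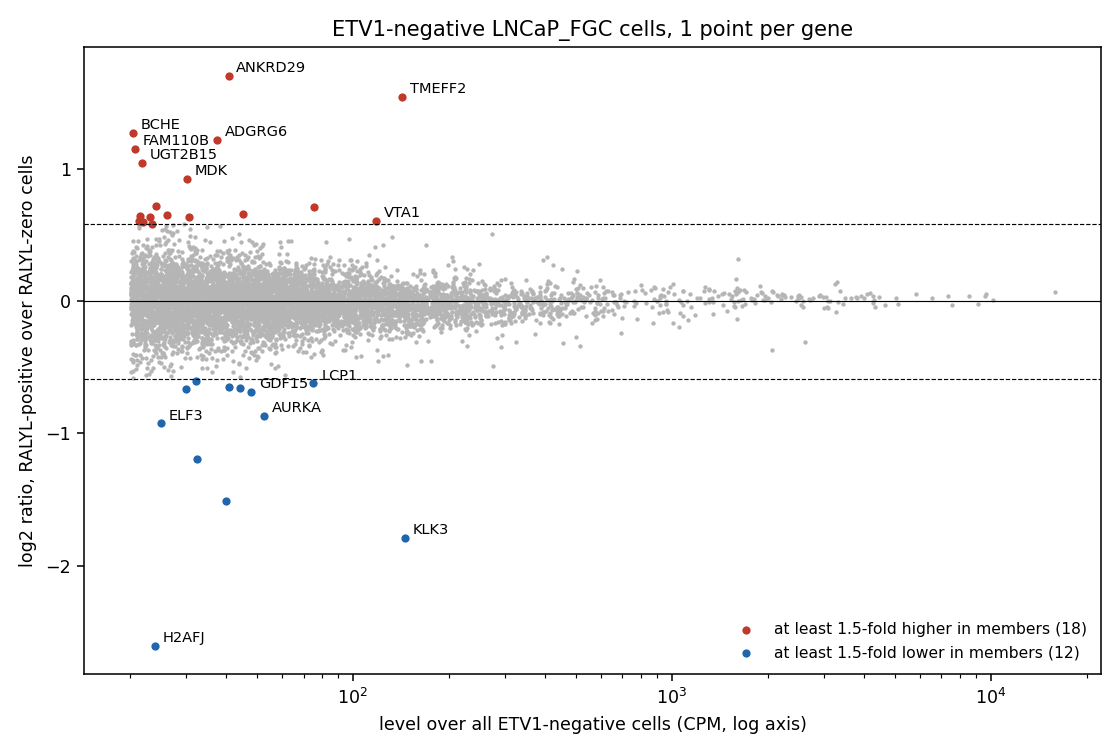
Each point is 1 of 6570 genes, with its level over all cells with 0 ETV1 UMIs in CPM on a log x axis and the log2 ratio of RALYL-positive over RALYL-zero cells on the y axis. Dashed lines mark 1.5-fold, past which lie 18 genes above (red) and 12 below (blue), with TMEFF2 and KLK3 the most abundant of those that are labelled.

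ANKRD29, which encodes an ankyrin repeat protein and lies at chr18:23598926-23662911 (GRCh38), had the highest ratio. It had 334 UMIs (62.5 CPM) in RALYL-positive and 104 UMIs (19.2 CPM) in RALYL-zero cells, a 3.26-fold difference (2.61 to 4.10). At the common depth 34.2% of RALYL-positive cells held an ANKRD29 UMI (94 of 275, 28.6 to 40.1) and 15.0% of RALYL-zero cells (41 of 274, 11 to 19.7), against 40.7% and 18.1% before thinning. The median cell of either group had 0 at that depth, and the highest had 9 and 4. The groups overlapped cell by cell and differed in the share of cells with the transcript.

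TMEFF2, a gene for a transmembrane protein with follistatin-like and EGF-like domains that is expressed in prostate and brain (chr2:191949043-192194933), carried the most UMIs of these genes. It stood at 213 CPM (1137 UMIs) in RALYL-positive and 72.9 CPM (395 UMIs) in RALYL-zero cells, 2.92-fold higher (2.60 to 3.28). At the common depth it was detected in 62.5% of RALYL-positive cells (172 of 275) and 36.5% of RALYL-zero cells (100 of 274), and the highest cells held 20 and 10 UMIs. In LNCaP_C4-2B it was at 0.028 CPM (1 UMI), whereas ANKRD29 stood at 86.9 CPM and BCHE at 0.597 CPM in that line.

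BCHE encodes butyrylcholinesterase, an esterase that splits choline esters. Its level was 29.0 CPM in RALYL-positive and 12 CPM in RALYL-zero cells, 2.42-fold higher (1.80 to 3.28). ADGRG6, an adhesion G protein-coupled receptor gene needed for myelination by Schwann cells (chr6:142301854-142446266), stood at 52.4 and 22.5 CPM, 2.33-fold higher (1.88 to 2.90). FAM110B, whose product associates with the centrosome, stood at 28.6 and 12.9 CPM, 2.22-fold higher (1.66 to 2.98). For each of these 3 genes more RALYL-positive than RALYL-zero cells held a UMI at the common depth, and the intervals of the shares did not overlap: 24.0% against 10.9% for BCHE, 26.5% against 13.1% for ADGRG6 and 21.8% against 11.7% for FAM110B.

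The other named genes on the higher side had roles in androgen conjugation, growth factor signaling and the cytoskeleton. UGT2B15, which glucuronidates androgens, stood at 29.4 CPM in RALYL-positive and 14.2 CPM in RALYL-zero cells, 2.07-fold higher (1.56 to 2.75). It shares sequence with UGT2B17, which was at 14.8 and 11.3 CPM, so reads of this pair may be divided uncertainly. MDK, the gene of the heparin-binding growth factor midkine, was 1.89-fold higher (1.499 to 2.40), at 39.5 and 20.9 CPM. MAP2, a microtubule-associated protein of neuronal dendrites, was 1.65-fold higher (1.28 to 2.14). VTA1, a cofactor in the formation of multivesicular bodies, was 1.53-fold higher (1.36 to 1.71) at the higher level of 143 and 94.0 CPM. LUZP2 (1.58-fold), TTC6 (1.55-fold) and LUZP1 (1.52-fold) completed the 12 highest genes that had the same direction in G1, S and G2M cells. GNAI1, an inhibitory G protein subunit gene, stood at 93.6 and 57.2 CPM, 1.64-fold higher (1.42 to 1.89), but did not keep that direction in every phase.

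On the lower side KLK3 held the most UMIs. It stood at 65.0 CPM (347 UMIs) in RALYL-positive and 225 CPM (1216 UMIs) in RALYL-zero cells, 3.46-fold lower (3.07 to 3.91). At the common depth 34.2% of RALYL-positive cells (94 of 275, 28.6 to 40.1) and 46.4% of RALYL-zero cells (127 of 274, 40.3 to 52.4) held a KLK3 UMI, against 45.4% and 56.8% before thinning. The highest cell had 10 KLK3 UMIs among RALYL-positive and 42 among RALYL-zero cells, so that the RALYL-zero group had the longer upper tail. KLK2, the neighboring kallikrein gene, stood at 127 and 154 CPM, a ratio of 0.82 (0.74 to 0.91).

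H2AFJ, the gene of the histone H2A variant H2A.J, had the lowest ratio. It had 36 UMIs (6.74 CPM) in RALYL-positive and 222 UMIs (41.0 CPM) in RALYL-zero cells, 6.08-fold lower (4.26 to 8.91). It was detected at the common depth in 4.4% of RALYL-positive cells (12 of 275) and 13.1% of RALYL-zero cells (36 of 274). A single RALYL-positive cell held 9 of the 36 UMIs, 25.0% of them.

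Further down, ELF3, an epithelial ETS factor gene, was 1.90-fold lower (1.47 to 2.47), at 17.2 CPM in RALYL-positive and 32.7 CPM in RALYL-zero cells. The mitotic kinase gene AURKA was 1.82-fold lower (1.53 to 2.18), at 37.3 and 68.0 CPM, and the spindle checkpoint kinase gene BUB1 was 1.52-fold lower (1.22 to 1.90). GDF15, a stress-induced cytokine gene, was 1.61-fold lower (1.34 to 1.93), PKIB, a protein kinase A inhibitor gene, 1.58-fold lower (1.26 to 2.00) and LCP1, which encodes the actin bundler L-plastin, 1.54-fold lower (1.33 to 1.78). TSPYL2, FN1 and MTMR6, with ratios of 0.668, 0.671 and 0.676, lay just short of 1.5-fold and completed the 12 lowest genes that had the same direction in G1, S and G2M cells. TRGC1, 1.57-fold lower (1.29 to 1.91), lies in the T cell receptor gamma locus and has a near copy, TRGC2, so its reads may be divided uncertainly.

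The regions before the starts of 4 of these genes are shown because KLK3 and H2AFJ had the lowest ratios and TMEFF2 and ADGRG6 were among the 4 highest. Of the 12 highest genes, 9 had an entry in the RefSeq promoter table (GRCh38.p14), and of the 12 lowest, 10. Each sequence below is the 250 bases before the RefSeq start, 5′ to 3′ on the gene's strand, and capitals mark matches on either strand to AGAACA, a steroid receptor half-site, or to CGGAAG, an ETS core. The window of KLK3 lies at chr19:50854665-50854914 (+), that of H2AFJ (H2AJ in RefSeq) at chr12:14774155-14774404 (+), that of TMEFF2 at chr2:192194934-192195183 (-) and that of ADGRG6 at chr6:142301757-142302006 (+).
KLK3: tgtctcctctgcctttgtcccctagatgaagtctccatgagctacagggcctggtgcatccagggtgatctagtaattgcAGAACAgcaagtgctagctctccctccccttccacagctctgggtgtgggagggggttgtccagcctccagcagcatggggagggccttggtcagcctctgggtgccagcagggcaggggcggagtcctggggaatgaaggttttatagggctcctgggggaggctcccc
H2AFJ: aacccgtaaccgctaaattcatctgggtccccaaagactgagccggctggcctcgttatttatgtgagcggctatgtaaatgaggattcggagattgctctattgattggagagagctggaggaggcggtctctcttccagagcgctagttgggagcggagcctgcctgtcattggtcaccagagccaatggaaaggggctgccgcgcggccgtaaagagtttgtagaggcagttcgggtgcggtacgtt
TMEFF2: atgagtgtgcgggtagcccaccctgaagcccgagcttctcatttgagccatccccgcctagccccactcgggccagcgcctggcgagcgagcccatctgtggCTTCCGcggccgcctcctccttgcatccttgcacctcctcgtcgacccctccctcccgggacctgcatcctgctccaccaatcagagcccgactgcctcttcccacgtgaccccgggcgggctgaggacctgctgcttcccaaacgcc
ADGRG6: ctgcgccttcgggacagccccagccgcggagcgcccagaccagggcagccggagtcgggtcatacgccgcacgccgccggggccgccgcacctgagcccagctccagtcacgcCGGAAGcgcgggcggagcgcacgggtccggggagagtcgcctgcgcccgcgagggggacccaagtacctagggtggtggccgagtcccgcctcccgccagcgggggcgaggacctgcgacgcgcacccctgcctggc

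The KLK3 window held 1 such half-site that began 170 bases before the start. TMEFF2 and ADGRG6 each held 1 ETS core, 148 and 137 bases before their starts, and the H2AFJ window held no match to either set of letters. Over all 34943 RefSeq promoter windows of that length, 12.4% held the half-site and 16.4% the ETS core. Of the genes with an entry, 1 of the 9 on the higher side and 4 of the 10 on the lower side held the half-site, and 3 and 1 held the ETS core. A match is a description of letters and not evidence of binding.

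Levels were also described by the number of RALYL UMIs in the cell. ANKRD29 stood at 19.2 CPM in RALYL-zero cells and at 46.9, 62.8 and 76.3 CPM in cells with 1, 2 and 3 or more RALYL UMIs. TMEFF2 stood at 72.9, 142, 184 and 293 CPM across the same groups, BCHE at 12, 18.4, 26.8 and 39.8 CPM, and ADGRG6 at 22.5, 30.0, 49.0 and 74.4 CPM. For these genes the order of the levels followed the order of RALYL counts. It did not for FAM110B (12.9, 24.7, 19.2 and 37.9 CPM), UGT2B15 (14.2, 30.5, 37.5 and 23.4 CPM) or MDK (20.9, 37.4, 26.0 and 49.6 CPM). Cells just inside the rule, with 1 RALYL UMI, had TMEFF2 and ANKRD29 levels whose intervals lay above those of RALYL-zero cells, while the BCHE and ADGRG6 intervals of these groups overlapped. At the later steps the TMEFF2 intervals lay apart and those of ANKRD29 and BCHE overlapped. The ADGRG6 intervals overlapped between 1 and 2 RALYL UMIs. RALYL chose the cells, so these orders are a description only.

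KLK3 stood at 225, 87.9, 59.0 and 48.2 CPM with 0, 1, 2 and 3 or more RALYL UMIs, and H2AFJ at 41.0, 9.48, 5.36 and 5.15 CPM. For both genes the wide gap lay between 0 and 1 RALYL UMI. AURKA stood at 68.0, 40.5, 49.0 and 27.1 CPM, an order that did not follow the RALYL count throughout. VTA1 stood at 94.0, 121, 162 and 153 CPM, likewise without a full order.

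**Figure D2:**
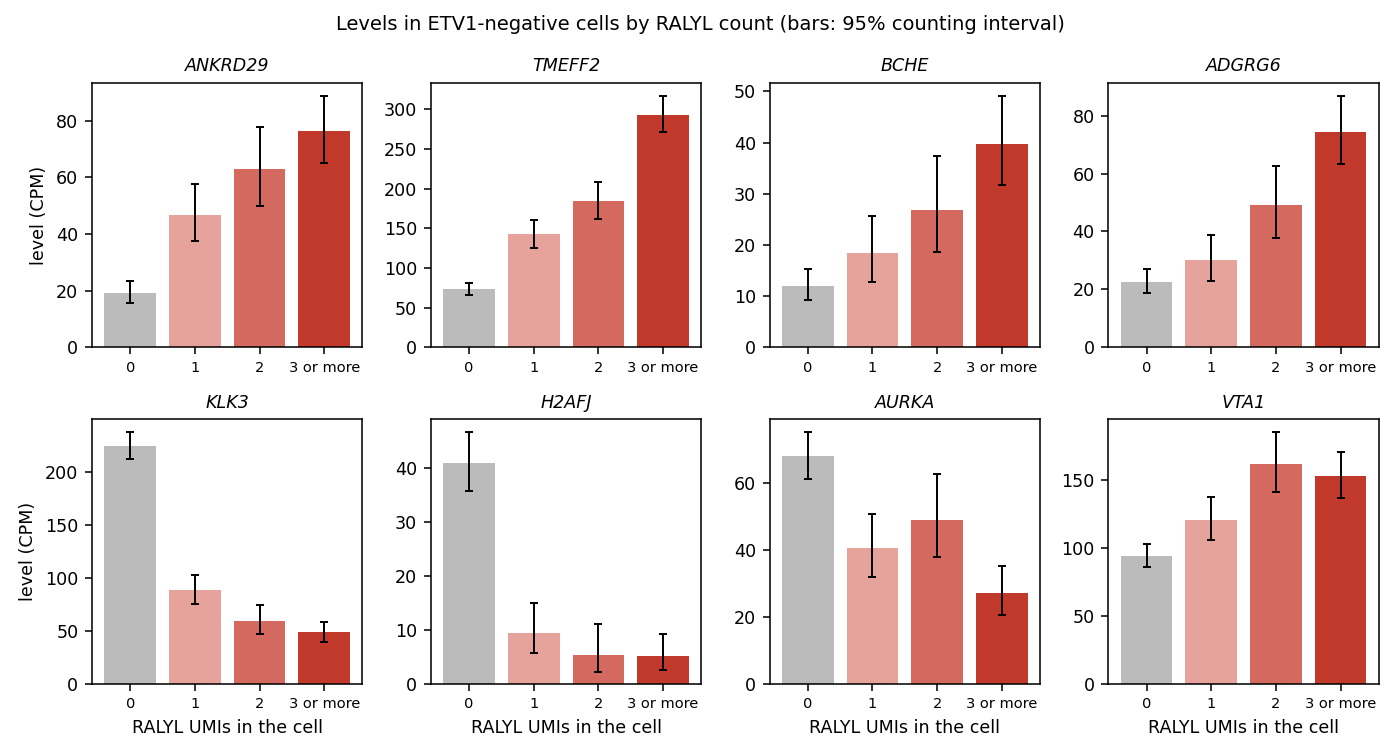
Bars give the level in CPM of 8 genes in LNCaP_FGC cells with 0 ETV1 UMIs, grouped by the RALYL UMIs in the cell (0, 1, 2, and 3 or more), with exact 95% counting intervals. ANKRD29, TMEFF2, BCHE and ADGRG6 had a higher level at each step, with intervals that overlapped at some steps for each but TMEFF2. KLK3 and H2AFJ had their widest gap between 0 and 1 RALYL UMI.

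Cells with ETV1 gave a comparison that had not chosen the genes. There, 291 RALYL-positive cells were set against 949 RALYL-zero cells. Of 6386 genes with at least 20 CPM in these cells, 78 (1.22%) were at least 1.5-fold higher and 113 (1.77%) at least 1.5-fold lower in RALYL-positive cells. Of the 12 highest named genes, 9 were above a ratio of 1 in cells with ETV1, and of the 12 lowest, 11 were below it. Over all genes measured in cells with 0 ETV1 UMIs, 59.8% were above 1 and 40.2% below 1 in cells with ETV1. Of the 18 genes past 1.5-fold on the higher side 7 were past it there too, and of the 12 on the lower side 8.

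ANKRD29 stood at 116 CPM in RALYL-positive and 6.515 CPM in RALYL-zero cells with ETV1, 17.9-fold apart (14.7 to 21.8), a wider gap than at 0 ETV1 UMIs. FAM110B was 13.1-fold apart (9.56 to 18.2) at 35.2 and 2.69 CPM, BCHE 3.82-fold (3.17 to 4.61), MDK 2.63-fold (2.20 to 3.14) and TMEFF2 2.60-fold (2.45 to 2.77). VTA1 was 1.84-fold higher (1.68 to 2.01). In contrast ADGRG6 had a ratio of 1.07 (0.985 to 1.15), UGT2B15 of 0.924, MAP2 of 0.885 and LUZP2 of 0.731. ANKRD29, FAM110B, BCHE, MDK, TMEFF2 and VTA1 were thus at least 1.5-fold higher in RALYL-positive cells with and without ETV1. The difference between the ratios was not tested.

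On the lower side H2AFJ was 4.84-fold lower (4.30 to 5.47) in RALYL-positive cells with ETV1, at 50.3 against 244 CPM, and KLK3 4.60-fold lower (4.38 to 4.84), at 284 against 1306 CPM. PKIB was 3.94-fold lower (3.48 to 4.49), FN1, the fibronectin gene, 3.35-fold lower (2.97 to 3.78), LCP1 2.67-fold lower (2.39 to 2.99) and GDF15 2.26-fold lower (2.03 to 2.51). AURKA had a ratio of 1.01 there (43.3 and 42.8 CPM).

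The RALYL-positive and RALYL-zero cells with ETV1 also differed in ETV1 count, which moves with several of these genes. Among cells with exactly 1 ETV1 UMI, KLK3 stood at 138 CPM in 124 RALYL-positive and 813 CPM in 119 RALYL-zero cells. H2AFJ stood at 25.8 and 166 CPM, ANKRD29 at 133 and 26.1 CPM, TMEFF2 at 344 and 140 CPM, BCHE at 48.6 and 22.7 CPM and ADGRG6 at 141 and 91.1 CPM. These intervals did not overlap between the groups for any of the 6 genes.

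**Figure D3:**
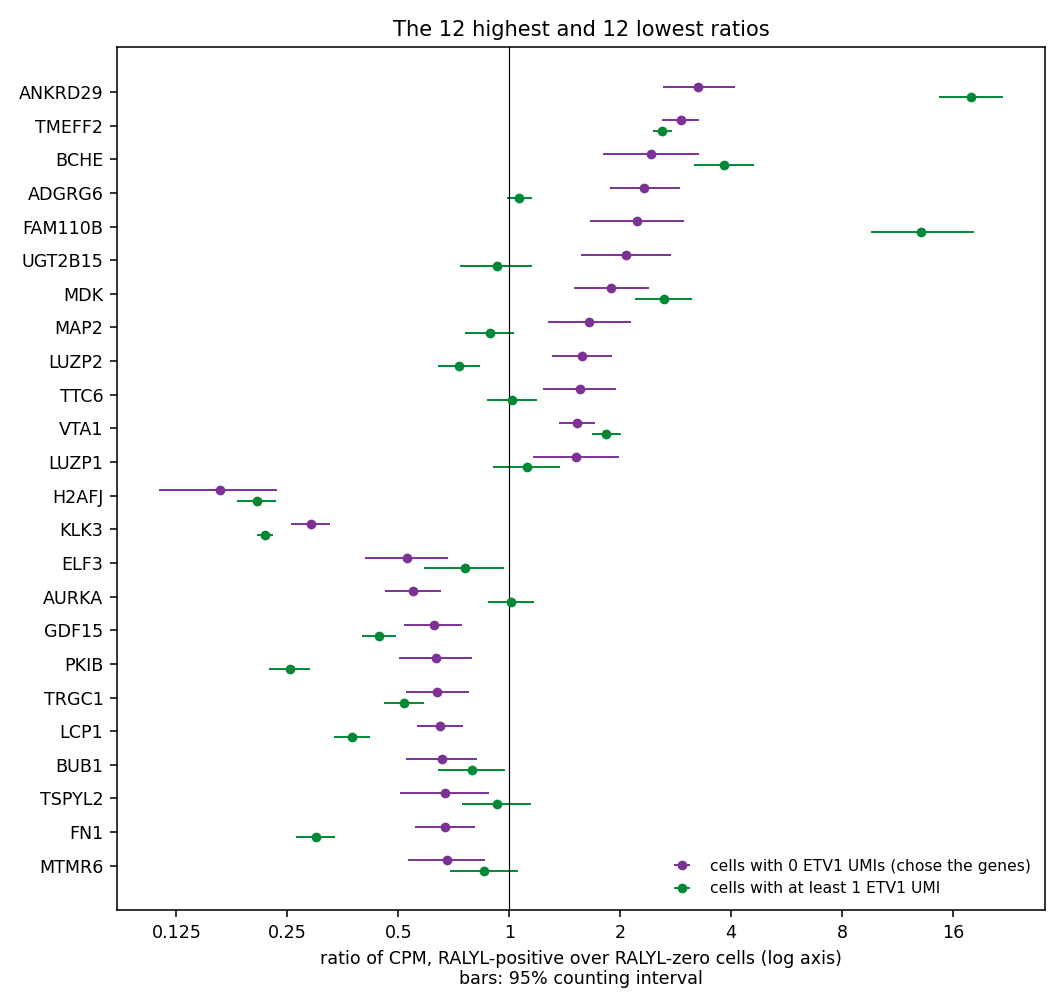
The ratio of CPM in RALYL-positive over RALYL-zero cells is shown on a log axis for the 12 highest and 12 lowest named genes, in cells with 0 ETV1 UMIs (purple, which chose the genes) and in cells with at least 1 (green), with 95% counting intervals. ANKRD29 and FAM110B lay farther from 1 in cells with ETV1, ADGRG6 and AURKA lay near 1 there, and KLK3 and H2AFJ were low in both.

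Clustering of all LNCaP_FGC cells, made without RALYL and ETV1 and with cell cycle scores regressed out, gave 6 clusters at resolution 0.5. Cluster 0 held 61.4% of RALYL-positive cells (181 of 295, 55.5 to 66.9) and 61.3% of RALYL-zero cells (193 of 315, 55.6 to 66.7). Cluster 3, whose leading genes by fold were FUCA2, ANKRD29, KCNJ3 and FAM110B, held 24.1% of RALYL-positive (71 cells, 19.3 to 29.4) and 5.4% of RALYL-zero cells (17 cells, 3.2 to 8.5). It also held 55.7% of RALYL-positive cells with ETV1 (162 of 291). Cluster 2, led by IL32 and LINC02767, held 14.2% of RALYL-positive (42 cells) and 22.2% of RALYL-zero cells (70 cells). The clusters are not named as cell types, and because their genes include those compared here they are a description of where the cells lay.

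Clusters 1, 4 and 5 were made up of cells with ETV1 in 95.3%, 96.9% and 93.7% of cases, and their KLK3 levels were 1743, 1361 and 1261 CPM against 99.3 CPM in cluster 0. They held 1 RALYL-positive cell with 0 ETV1 UMIs (0.339%) and 35 RALYL-zero cells (11.1%). Those 35 cells gave 9.17% of the UMIs of RALYL-zero cells but 59.2% of their KLK3 UMIs (720 of 1216) and 74.8% of their H2AFJ UMIs (166 of 222). They gave 31.5% of TRGC1 UMIs, 29.6% of PKIB and FN1 UMIs, 27.3% of GDF15 and 25.8% of LCP1 UMIs, and 3.80% of AURKA UMIs. Among genes on the higher side they gave 39.3% of ADGRG6 UMIs (48 of 122) and 6.84% of TMEFF2 UMIs. Of ANKRD29 and FAM110B UMIs they gave 0.

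**Figure D4:**
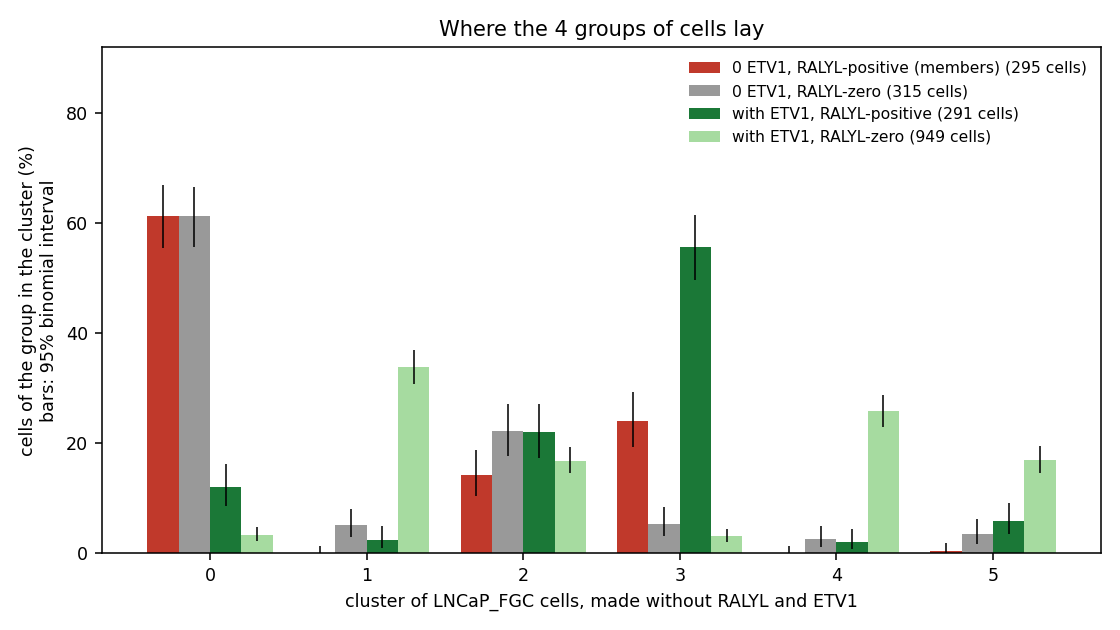
Bars give the share of each of 4 groups of LNCaP_FGC cells that lay in each of 6 clusters, with exact 95% binomial intervals. The RALYL-positive cells with 0 ETV1 UMIs (red) lay in clusters 0, 2 and 3, while 11.1% of RALYL-zero cells (grey) lay in clusters 1, 4 and 5 with most cells that had ETV1 and no RALYL (light green).

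The comparison was also repeated in the 3 clusters that each held at least 20 RALYL-positive cells (294 RALYL-positive and 280 RALYL-zero cells), a choice made after seeing the data. Counts of genes past 1.5-fold were 21 higher and 9 lower, 14 and 6 of them among the 18 and 12. KLK3 was then at 65.1 and 101 CPM, 1.55-fold lower (1.35 to 1.78) in place of 3.46-fold. H2AFJ was at 6.76 and 11.4 CPM, 1.68-fold lower (1.09 to 2.64) in place of 6.08-fold. ANKRD29 (2.97-fold, 2.37 to 3.73), TMEFF2 (2.85-fold, 2.53 to 3.21) and BCHE (2.35-fold, 1.73 to 3.21) moved little, and ADGRG6 had a 3.49-fold ratio (2.70 to 4.58). AURKA stayed 1.93-fold lower (1.61 to 2.30).

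Within cluster 0 alone, each of the 12 highest named genes was above a ratio of 1 and 8 of the 12 lowest were below it. TMEFF2 was 2.60-fold higher (2.16 to 3.13), ADGRG6 2.62-fold (1.70 to 4.13), ANKRD29 2.15-fold (1.53 to 3.05) and BCHE 1.87-fold (1.27 to 2.79). KLK3 had a ratio of 0.854 (0.700 to 1.04) at 57.5 and 67.4 CPM. H2AFJ stood at 2.42 and 2.11 CPM, a ratio of 1.15 (0.365 to 3.73), so that no difference was detectable at this depth. Inside cluster 0 the KLK3 and H2AFJ intervals thus included 1, as did those of ELF3, GDF15, PKIB, TRGC1, LCP1 and FN1. The clusters were made with genes compared here, so the clustering may itself narrow gaps inside a cluster, which was not tested. The intervals of AURKA, BUB1, TSPYL2 and MTMR6 lay below 1, with AURKA at a ratio of 0.604 (0.491 to 0.741). Of the 12 highest named genes, LUZP1 had an interval that included 1. Those of the others, TMEFF2, ADGRG6, ANKRD29 and BCHE among them, lay above it.

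RALYL-positive cells varied among themselves by cluster. In members of cluster 3, TMEFF2 stood at 496 CPM, ANKRD29 at 161 CPM, ADGRG6 at 152 CPM, BCHE at 58.3 CPM and MDK at 77.5 CPM. In those of cluster 0 the levels were 127, 33.6, 23.6, 23.6 and 27.6 CPM. VIM, the mesenchymal filament gene vimentin, stood at 29.2 CPM in cluster 3 and 8.48 CPM in cluster 0, and FUCA2, a fucosidase gene, at 37.5 and 6.96 CPM. UGT2B15 and GNAI1 ran the other way, at 21.7 and 47.5 CPM in cluster 3 and 35.1 and 126 CPM in cluster 0. The 17 RALYL-zero cells of cluster 3 held TMEFF2 at 443, ANKRD29 at 113, ADGRG6 at 128, BCHE at 46.1 and MDK at 60.2 CPM. VIM stood at 24.8 and FUCA2 at 35.4 CPM in them, so high levels in cluster 3 were not particular to RALYL-positive cells. Of RALYL-positive cluster 3 cells 74.6% had at least 2 RALYL UMIs (53 of 71), against 59.1% in cluster 0 (107 of 181) and 21 of 42 cells in cluster 2. Members of cluster 2 had the highest KLK3 level of the 3 clusters, 140 CPM, and the highest level of NDRG1 (188 CPM), a stress-responsive and androgen-responsive gene.

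By CellCycleScoring, 42.7% of RALYL-positive cells were in G1 (126 of 295, 37.0 to 48.6), 25.8% in S (76 cells) and 31.5% in G2M (93 cells, 26.3 to 37.2). The shares of RALYL-zero cells were 40.0% (126 of 315), 23.2% (73 cells) and 36.8% (116 cells, 31.5 to 42.4), with overlapping intervals in each phase. In cells with at least 2 RALYL UMIs G2M cells made up 24.9% (45 of 181, 18.7 to 31.8), an interval that overlapped that of RALYL-zero cells by a narrow margin.

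Cell cycle progression genes leaned lower in RALYL-positive cells. None of 29 measured genes was past 1.5-fold, against 0.457% of all measured genes. Of the 29, 23 were below a ratio of 1, and their median log2 ratio was -0.18 against -0.01 over all measured genes. PLK1, a mitotic kinase gene, stood at 46.2 CPM in RALYL-positive and 64.3 CPM in RALYL-zero cells (0.720, 0.609 to 0.850), and CDC20, an activator of the anaphase-promoting complex, at 63.1 and 84.4 CPM (0.748, 0.648 to 0.863). MKI67, the proliferation marker gene, stood at 150 and 174 CPM (0.862, 0.784 to 0.949). The G2M shares of the groups moved with these genes, and their part in the levels was not tested. In cells with ETV1 the median log2 ratio of the list was 0.11, against 0.04 over all measured genes. Replication licensing and fork genes had 16 of 28 members above 1 and a median log2 ratio of 0.05, with 0 past 1.5-fold against the same 0.457%.

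Androgen-regulated genes lay on both sides of 1. Of 25 measured androgen-induced genes, KLK3 alone was past 1.5-fold, against 0.457% of all measured genes. Of the 25, 17 were below 1, and the median log2 ratio was -0.07. PMEPA1, an androgen-induced inhibitor of TGF-beta signaling, stood at 140 and 174 CPM (0.806, 0.732 to 0.888), and TMPRSS2, a serine protease gene, at 116 and 109 CPM. HPGD, which breaks down prostaglandins, had 69 and 120 UMIs (0.583, 0.427 to 0.790). MAF, a basic leucine zipper factor, stood at 322 CPM in RALYL-positive and 226 CPM in RALYL-zero cells (1.42, 1.32 to 1.53), and was 3.70-fold higher (3.46 to 3.96) in cells with ETV1. Of 4 measured genes in the list of UGT2B and other androgen-repressed genes, BCHE and UGT2B15 were past 1.5-fold higher, against 0.274% of all measured genes. In cells with ETV1 the median log2 ratio of these 4 was -0.78. The other UGT2B genes had fewer UMIs and were not measured, with UGT2B11 at 108 UMIs in RALYL-positive and 53 in RALYL-zero cells (2.07, 1.47 to 2.93). UGT2B28 had 38 and 25 (1.54, 0.906 to 2.66) and UGT2B17 79 and 61 (1.31, 0.928 to 1.87). UGT2B4, UGT2B7 and UGT2B10, with 16 UMIs or fewer in either group, also had ratios above 1, but their intervals included 1. Reads of this gene family may be divided uncertainly. CAMK2N1, an inhibitor of calcium/calmodulin-dependent kinase II, stood at 49.6 and 72.9 CPM (0.680, 0.580 to 0.797) and DDC, which makes dopamine and serotonin, at 20.4 and 21.8 CPM.

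A list of genes that earlier results of these data had found lower in LNCaP_FGC cells without ETV1 was also low here. Of its 5 measured members 3 were at least 1.5-fold lower, against 0.183% of all measured genes, with KLK3 and H2AFJ at the far end. The median log2 ratio of the 5 was -0.66. The list was chosen on these cells and is not independent evidence. The 35 RALYL-zero cells described above held much of its KLK3, H2AFJ and PKIB UMIs.

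RALY and the other hnRNP genes, the family to which RALYL belongs, lay near the level of RALYL-zero cells. Of 25 measured, 0 were past 1.5-fold, against 0.457% of all measured genes. Of the 25, 19 were above 1 and the median log2 ratio was 0.05. RALY stood at 95.1 CPM in RALYL-positive and 99.0 CPM in RALYL-zero cells (0.961, 0.849 to 1.09) and HNRNPC at 560 and 542 CPM (1.03, 0.980 to 1.09). The largest ratio among the 25 measured was that of HNRNPA1, at 523 and 466 CPM (1.12, 1.06 to 1.18).

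Neuronal genes summed to near the same level in both groups. Of 57 neuronal and synaptic genes 4 were measured and 0 were past 1.5-fold, against 0.457% of all measured genes. The level summed over all listed genes was 578 CPM in RALYL-positive and 579 CPM in RALYL-zero cells. Of the 57, 24 had no UMI in either group, and STMN1 (208 and 211 CPM) and NCAM2 (140 and 149 CPM) gave much of the sum. Neuroendocrine markers summed to 82.4 and 83.5 CPM, with 10 of 20 at 0 in both groups. SYT4, a synaptotagmin gene, stood at 19.1 and 17.9 CPM. Genes of the list too low to be measured lay on both sides of 1. CSMD1 had 106 and 71 UMIs (1.51, 1.11 to 2.07), TENM1 72 and 46 (1.59, 1.08 to 2.35) and KCND2 20 and 8 (2.53, 1.07 to 6.65). In the other direction, CNTNAP2 had 39 and 57 (0.694, 0.449 to 1.06), ROBO1 37 and 46 (0.816, 0.514 to 1.29) and CADM2 7 and 14 (0.507, 0.173 to 1.34). The intervals of CSMD1, TENM1 and KCND2 lay above 1, while those of CNTNAP2, ROBO1 and CADM2 included it.

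Notch pathway genes had 4 of 8 measured members above 1 and 0 past 1.5-fold, against 0.457% of all measured genes past it. HES6, a HES family repressor that inhibits HES1, stood at 154 CPM in RALYL-positive and 110 CPM in RALYL-zero cells (1.40, 1.26 to 1.56), and was 3.06-fold higher (2.74 to 3.41) in cells with ETV1. HES1, the classical Notch target, stood at 154 and 179 CPM (0.857). JAG1, a Notch ligand gene, stood at 35.0 and 25.7 CPM (1.36, 1.09 to 1.71), but had a ratio of 0.608 (0.527 to 0.701) in cells with ETV1. Of 4 measured stem and progenitor markers 0 were past 1.5-fold, against the same 0.457%, and 3 were above 1. SOX4 stood at 438 and 352 CPM (1.24, 1.17 to 1.32), ALDH1A3 at 35.4 and 39.5 CPM (0.895, 0.732 to 1.09) and BMI1, a Polycomb subunit gene, at 48.5 and 39.15 CPM (1.24, 1.03 to 1.49). CD24, a surface glycoprotein gene too low to be measured, had 31 and 69 UMIs (0.456, 0.288 to 0.705).

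Cholesterol synthesis genes had 17 of 20 measured members below 1 and a median log2 ratio of -0.11, with the sterol-sensing transcription factor gene SREBF2 at 33.1 CPM in RALYL-positive and 44.9 CPM in RALYL-zero cells (0.739, 0.605 to 0.900). Integrated stress response genes had 13 of 16 below 1 and a median of -0.16, whereas unfolded protein response genes had 11 of 19 above 1 and heat shock chaperone genes 8 of 16. None of these genes was past 1.5-fold, against 0.457% of all measured genes. Of 7 measured MHC class I and antigen processing genes 5 were below 1, with a median of -0.24. SAT1, which acetylates polyamines for breakdown, stood at 453 and 575 CPM (0.789, 0.748 to 0.832). In cells with ETV1 the medians of the cholesterol, stress response and MHC lists were 0.11, 0.05 and 0.13, against 0.04 over all measured genes.

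**Figure D5:**
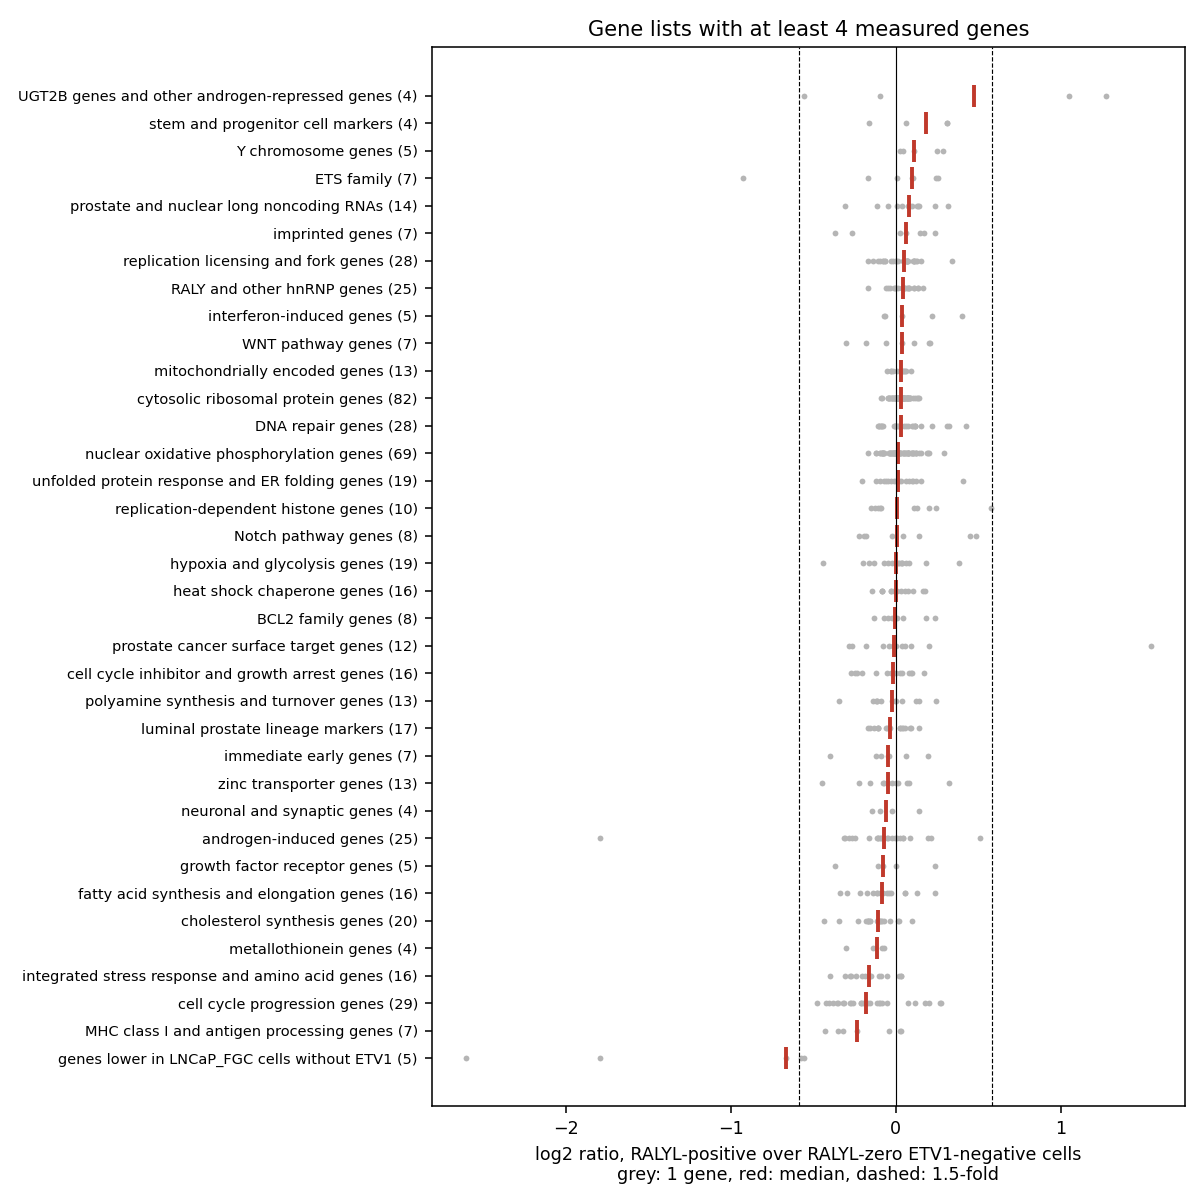
Each grey point is 1 gene of a list, at its log2 ratio of RALYL-positive over RALYL-zero cells with 0 ETV1 UMIs, and each red mark is the median of the list, for lists with at least 4 measured genes (number in parentheses). Dashed lines mark 1.5-fold. Only the list of genes lower in LNCaP_FGC cells without ETV1 has its median past a dashed line.

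Few UMIs came from immune, endothelial or erythroid markers. Of 21 mesenchymal markers 1, FN1, was measured. VIM stood at 13.7 CPM (73 UMIs) in RALYL-positive and 10.9 CPM (59 UMIs) in RALYL-zero cells (1.25, 0.878 to 1.80), and TWIST1, a mesenchymal transcription factor, had 13 and 22 UMIs. FN1 stood at 35.6 and 53.0 CPM (0.671, 0.556 to 0.809). S100A4, a calcium-binding protein gene, had 24 and 4 UMIs (6.08, 2.09 to 24.1) and SNAI2, a transcriptional repressor gene, 30 and 16 (1.90, 1.004 to 3.73). The 10 immune markers summed to 1.498 CPM in RALYL-positive and 2.22 CPM in RALYL-zero cells, with 6 at 0 in both groups, and the 10 endothelial and erythroid markers to 2.06 and 1.85 CPM, with 8 at 0 in both. The 12 markers of non-prostate epithelia summed to 12.9 and 10.9 CPM and the 12 basal markers to 29.6 and 27.1 CPM. Fibroblast and smooth muscle markers summed to 38.2 and 47.1 CPM, of which ACTA2 alone gave 29.4 and 39.9 CPM.

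The measured genes of each autosome and of chromosome X had median log2 ratios between -0.05 (chromosome 22, 156 genes) and 0.03 (chromosome 21, 70 genes). The 5 measured genes of chromosome Y were all above 1, with a median of 0.11. Of the 18 genes on the higher side, ADGRG6 and VTA1 were neighbors on chromosome 6, where VTA1 lies at chr6:142147162-142224685. The other measured genes within 2 Mb of ADGRG6 lay closer to 1, with AIG1 at 66.5 CPM in RALYL-positive and 64.6 CPM in RALYL-zero cells (1.03) and PHACTR2 at 42.9 and 48.4 CPM (0.886).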

How the data were processed

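Gene by cell matrices of 36601 genes were deposited for each line as UMI counts from 10x 3′ libraries. The submitters' processing notes name Cell Ranger 6.0, Seurat 5.011 and GRCh38. The authors removed low-quality cells and doublets and brought the libraries to a like depth before they deposited the counts, and no further cell was removed or doublet caller run here.

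Counts were summed over the cells of a group and divided by the group total to give CPM. Ratios have exact conditional intervals, levels exact Poisson intervals and shares Clopper-Pearson intervals, all at 95%. Genes with at least 20 CPM over all cells with 0 ETV1 UMIs were called measured, and those past 1.5-fold were counted. Cells were thinned without replacement to 10857 UMIs, the 10th percentile of cells with 0 ETV1 UMIs. Phases came from CellCycleScoring in Seurat 5.3.0 (R 4.3.3). Clusters used 3000 variable genes and 10 components. Ratios were computed with numpy 2.4.6 and scipy 1.17.1, and scaling factors with edgeR 4.0.16. Gene positions came from GENCODE on GRCh38.

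The genes named were the 12 highest and 12 lowest measured ratios with the same direction in all 3 phases, up to 2 genes at each end of every list, and a fixed set of luminal, proliferation, mesenchymal and RNA-binding genes. Other genes, such as GNAI1, UGT2B17, FUCA2, NDRG1, ACPP, S100A4 and CSMD1, were named after their values were seen. The cells, gene lists and rules were chosen with earlier results of these data known. Some genes are not reported here.

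Alternatives were thinning, depth strata, at least 2 RALYL UMIs, equal weight per cell, other totals and scaling factors, other filters, single phases and resolution 0.3. Comparisons within clusters were added after seeing the data.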

Additional observations from a re-analysis of the deposited data

How the results depend on the processing

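The counts of 18 higher and 12 lower genes moved with the number of UMIs behind each gene. They were 30 and 47 after thinning, 28 and 21 in cells above the median UMI count, 93 and 112 in cells at or below it, 33 and 37 with at least 2 RALYL UMIs, and 27 and 37 when cells were called again after thinning. With every cell weighted equally they were 17 and 24, and without the 10% of cells with most UMIs 20 and 30. Filters gave 52 and 67 (10 CPM), 3 and 3 (50 CPM) and 841 and 826 (10 UMIs over both groups). G1 cells alone gave 108 and 92, S cells 151 and 135, and G2M cells 81 and 93. TMM and median of ratios factors gave 18 and 12 each. The direction of the 18 and 12 genes was kept in all of these settings where they were measured except S cells (14 and 11) and G2M cells (17 and 10).

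Of 2 settings added after seeing the data, cluster 0 alone gave 31 lower genes and turned the log2 ratio of H2AFJ to 0.20, of GDF15 to 0.28, of LCP1 to 0.052 and of FN1 to 0.16. The G2M share was 24.9% with at least 2 RALYL UMIs. At resolution 0.3 the largest cluster held 84.7% of RALYL-positive and 66.7% of RALYL-zero cells, against 61.4% and 61.3% at resolution 0.5. The cause of these changes was not tested, apart from fewer UMIs or genes where the setting itself removes them. No paired analysis was possible because each line has 1 library and no result comes from a test. No replicate could be left out for the same reason.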

Other observations

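In cluster 2 the RALYL-positive cells (42) and RALYL-zero cells (70) differed in the levels of 3 genes that were picked after the clusters were seen. IL32, a cytokine gene, stood at 26.7 CPM in RALYL-positive and 76.2 CPM in RALYL-zero cells of that cluster. BIRC3, an NF-kappaB target and apoptosis inhibitor gene, stood at 19.4 and 83.8 CPM and ELF3 at 20.6 and 67.0 CPM. LINC02767, another leading gene of that cluster, ran the other way at 103 and 57.1 CPM, and NDRG1 was at 188 and 204 CPM. The 70 RALYL-zero cells of cluster 2 held 88 of the 177 ELF3 UMIs of all RALYL-zero cells. Within cluster 0 the ELF3 ratio was 0.863 (0.601 to 1.24). No test was run on these levels.

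By chromosome, the measured genes of RALYL-positive cells with ETV1 had median log2 ratios over RALYL-zero cells of 0.26 on chromosome 16 and -0.15 on chromosome 13, against 0.04 over all measured genes. With 0 ETV1 UMIs the same medians were -0.01 over 309 genes and 0.03 over 93 genes.

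Around ANKRD29 on chromosome 18, 8 of 10 measured genes within 2 Mb were above a ratio of 1 in cells with 0 ETV1 UMIs, with a median log2 ratio of 0.11. TMEM241 had the highest, 0.46. Over all measured genes 3142 of 6570 were above 1. Windows around other higher-side genes varied: 1 of 4 genes was above 1 for TMEFF2, 2 of 7 for ADGRG6, 6 of 13 for MDK and 7 of 17 for LUZP1. The counts were 4 of 7 for TTC6 and 2 of 2 for UGT2B15.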
